A study of Mus musculus with 3 samples.

Results

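Foxp3, Ikzf2, Il2ra, Ctla4, Tbx21, Eomes, Gata3, Bcl6 and Tcf7 are genes by which T cells and innate lymphoid cells are sorted into kinds. These 9 genes, of 32886 in the deposited count table, were taken by name and followed across the T, NK and ILC2 clusters of the mouse kidney and across 3 compartments: cortex, OM (outer medulla) and IM (inner medulla). All 9 are annotated as protein coding on the GRCm38 assembly.

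T cells recognize antigen through a rearranged receptor, while natural killer (NK) cells and group 2 innate lymphoid cells (ILC2) carry none. The transcription factor FOXP3 defines regulatory T cells, which restrain other lymphocytes and which often carry Helios (the product of Ikzf2), the high-affinity interleukin 2 receptor chain CD25 (Il2ra) and the inhibitory receptor CTLA-4. T-bet (Tbx21) and Eomesodermin (Eomes) direct type 1 and cytotoxic programs, GATA3 directs type 2 cells including ILC2, BCL6 directs follicular helper T cells, and TCF-1 (Tcf7) marks naive and memory T cells.

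The series profiled immune cells from kidneys of untouched wt male C57BL/6J mice at 10 weeks of age. Kidneys were perfused, dissected by hand into cortex, OM and IM, digested, and sorted for cells bearing CD45, a surface protein of all leukocytes, before droplet-based single-cell RNA sequencing. Datasets were made in Aachen, Bonn and Hamburg, which gave 9 libraries of 1 compartment in 1 dataset each. The table holds 20266 cells in 23 clusters named by the authors, of which 7223 cells in 8 clusters are T, NK or ILC2 cells: T_cell_1 to T_cell_4, Malat+_T_cell, NK_cell_1, NK_cell_2 and ILC2. The number of mice behind a library is not given in the sources used here, so the dataset served as the replicate (n = 3) in the comparisons of compartments. The p-values of the gene tests use the spread left among the libraries after dataset and compartment terms. The tests estimated it with information shared over genes.

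Before the levels, the stretches upstream of the start sites of Foxp3 and of 3 of the 4 genes that were higher in cells with a Foxp3 UMI are shown, since the second comparison below turns on them. Each line holds 150 bases, read 5′ to 3′ on the strand of the gene, up to the base before a RefSeq transcription start on GRCm38.p6. The Foxp3 stretch is chrX:7580333-7580482 on the plus strand, that of Ctla4 is chr1:60908875-60909024 on the plus strand, that of Il2ra is chr2:11642642-11642791 on the plus strand, and that of Gata3 is chr2:9878601-9878750 on the minus strand. Capitals mark a match to AGATAA, a letter string bound by GATA factors.
Foxp3: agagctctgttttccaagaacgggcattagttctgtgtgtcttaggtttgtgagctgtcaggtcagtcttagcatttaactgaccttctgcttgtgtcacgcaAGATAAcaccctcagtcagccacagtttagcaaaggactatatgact
Ctla4: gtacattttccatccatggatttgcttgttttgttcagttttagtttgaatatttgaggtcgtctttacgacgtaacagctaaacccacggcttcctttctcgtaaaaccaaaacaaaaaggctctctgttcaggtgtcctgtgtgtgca
Il2ra: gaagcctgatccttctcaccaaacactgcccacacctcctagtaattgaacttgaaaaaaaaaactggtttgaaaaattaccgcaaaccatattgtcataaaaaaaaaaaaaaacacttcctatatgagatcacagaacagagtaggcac
Gata3: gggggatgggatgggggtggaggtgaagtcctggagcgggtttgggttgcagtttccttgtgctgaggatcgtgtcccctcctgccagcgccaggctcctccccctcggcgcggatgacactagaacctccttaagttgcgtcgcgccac
RefSeq entries were at hand for 8 of the 9 genes (not Ikzf2), with 11 start sites in all. Of the 250 bases before each start, searched on both strands, 9.99% of 32851 RefSeq windows held AGATAA. Among the 9 genes this was the case for the Foxp3 start shown. The other Foxp3 start, with the stretch chrX:7579526-7579675 (not shown), had no match. The strings TGTTTAC (forkhead), AGGTGTGA (T-box) and CTTTGAT (TCF) stood in 3.17%, 1.12% and 3.21% of all windows and in none of these 11. A match is a letter string and not a measured site.

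The libraries were not alike. The 9 libraries held 573535 to 5681806 UMIs (unique molecular identifiers, here deposited counts) in T, NK and ILC2 cells. The median T cell held 773 to 1107 UMIs in the Aachen libraries, 3151 to 3301 in Bonn and 3375 to 3605.5 in Hamburg. Aachen also stood apart in that 7 T cell receptor constant genes (Trac, Trbc1, Trbc2, Trdc, Tcrg-C1, Tcrg-C2 and Tcrg-C4) were listed at 0 in every cell, against 164 to 1860 UMIs for each in Bonn and 129 to 3201 in Hamburg. All 9 genes described here had UMIs in all 3 datasets, down to 10 UMIs for Foxp3 in Aachen. There were 219 barcode sequences found in more than 1 library, of which 16 were shared between libraries of Aachen, 13 between libraries of Bonn and none between libraries of Hamburg. The names of T_cell_1 to T_cell_4 and of NK_cell_1 held against markers, while those of NK_cell_2, ILC2 and Malat+_T_cell have limits given here. In T_cell_1 to T_cell_4, 11 of 11 T cell markers were detected, with a summed level of 3752 to 6330 UMIs scaled to a common library total as CPM. The NK clusters had 370 to 724 CPM of them and ILC2 530 CPM. Malat+_T_cell had 3009 CPM of T cell markers, below its 4584 CPM of macrophage markers (549 to 11901 CPM by dataset). NK markers summed to 23688 CPM in NK_cell_1 and 8500 CPM in NK_cell_2, and NK_cell_2 had more of the ILC1 markers (1262 against 111 CPM). Resident macrophage clusters had 6125 to 7514 CPM of the NK markers. In each Aachen library, ILC2 had more macrophage markers (2106 to 3319 CPM) than ILC2 markers (1212 to 1772 CPM), unlike in Bonn and Hamburg. Cells with 2 or more UMIs of B cell and macrophage markers, called mixed cells here, made up 22.7% of T cells, 22.1% of NK cells and 42.9% of ILC2.

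Levels across clusters are given as CPM of the summed cells of a cluster, as the mean ± SD over the 3 datasets. They are a description with no test, since the clusters were built from the same cells, and since the study named ILC2 partly by Gata3. Neighbors in the order of levels are said to differ where the mean difference of log2(CPM + 10) over datasets exceeded its SD.

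**Figure D1:**
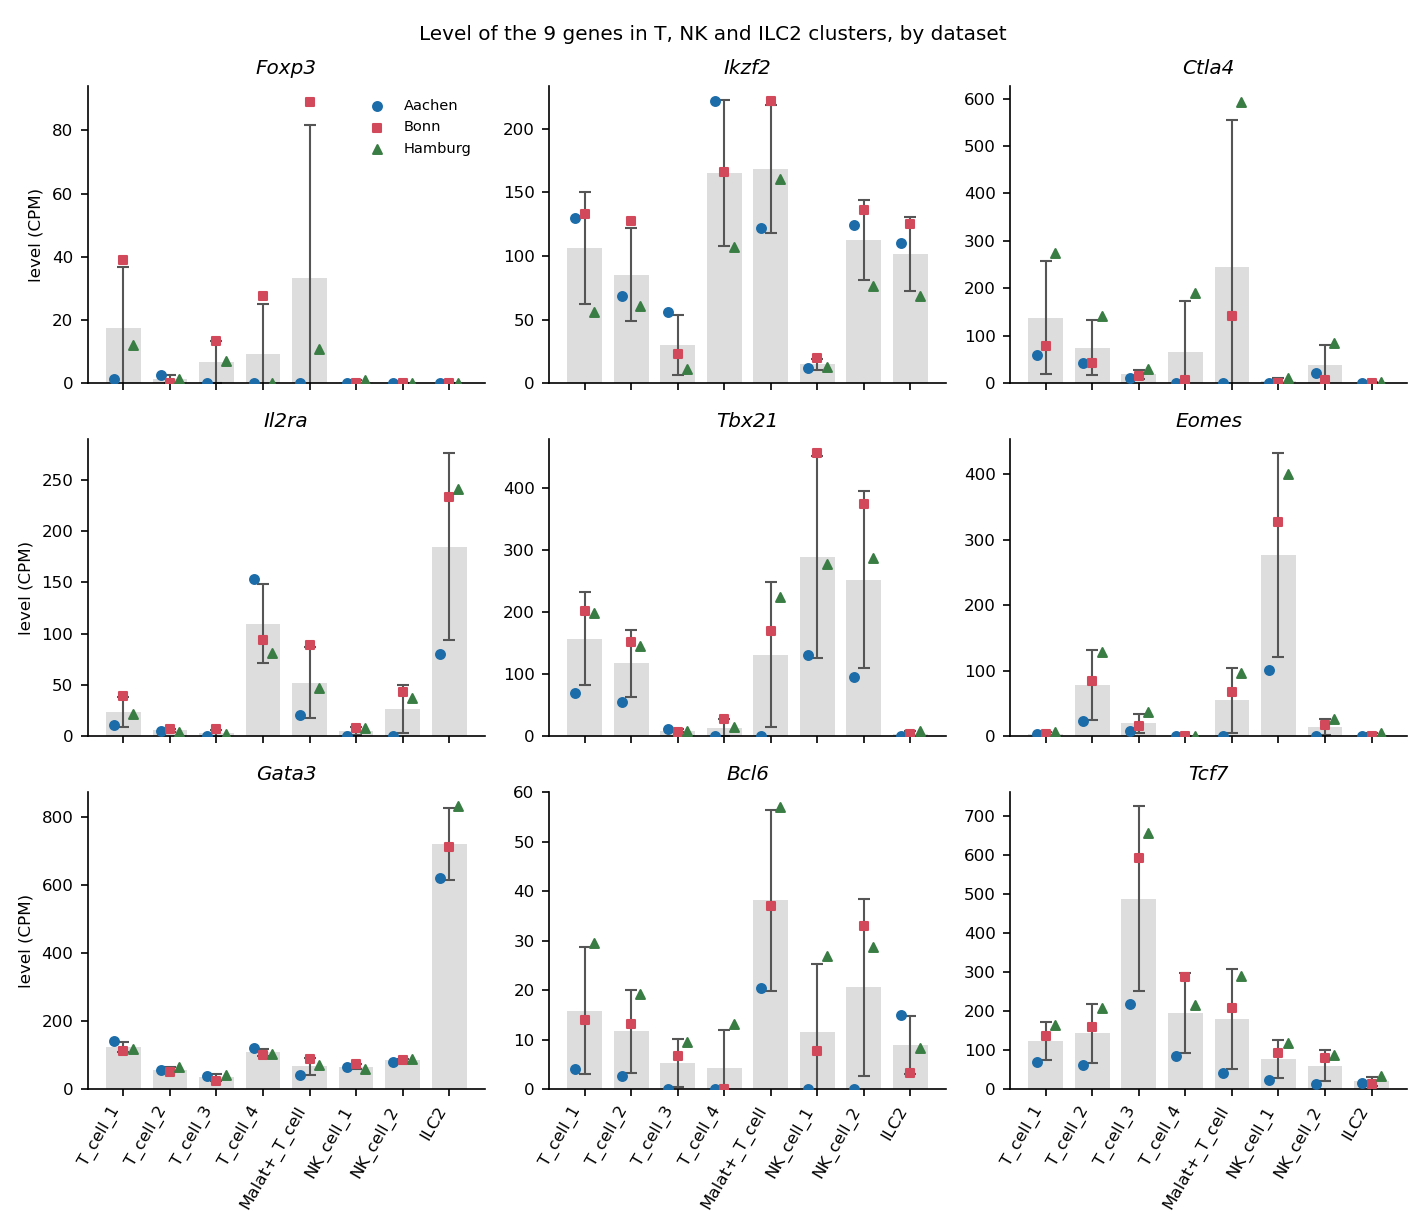
Level of each of the 9 genes in the 8 T, NK and ILC2 clusters (y axis, CPM; x axis, clusters). Bars show the mean of 3 datasets, error bars the SD, cut at 0, and points the datasets. Gata3 stood highest in ILC2, Eomes in NK_cell_1 and Tcf7 in T_cell_3 in each dataset.

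Foxp3 (chrX:7573644-7595245, plus strand), the factor that defines regulatory T cells, was sparse in these libraries. Among the T, NK and ILC2 clusters it was almost confined to T cell clusters. Its level in T_cell_1 was 1.33 CPM in Aachen, 38.9 CPM in Bonn and 12 CPM in Hamburg (17.4 ± 19.4, n = 3). The Bonn value was highest and the Aachen value rested on 1 UMI. In Malat+_T_cell, a small cluster of shallow cells with a median of 1018 UMIs, it was 0 in Aachen, 88.9 CPM in Bonn and 10.9 CPM in Hamburg. T_cell_3 had 0, 13.3 and 6.99 CPM in the same order. T_cell_4 had 5 UMIs, all from 1 Bonn cell, and T_cell_2 averaged 1.3 CPM. Foxp3 was at 0 UMIs in all 424 ILC2 and all 527 NK_cell_2 cells, and 1 UMI was found in NK_cell_1. Cells outside these clusters also held Foxp3 UMIs. Of the Foxp3 UMIs in all cells, T_cell_1 held 1 of 10 in Aachen, 108 of 178 in Bonn and 36 of 70 in Hamburg. In Aachen, T_cell_2 held 2 and the other T cell clusters 0, so most Foxp3 UMIs there lay outside T cell clusters. In the order of levels, T_cell_1 exceeded T_cell_4 by more than the spread, and the other neighbors did not differ beyond it.

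A Foxp3 UMI was found in 82 of the 5236 cells of T_cell_1 to T_cell_4 (1.57%). T_cell_1 held 59 of them (72.0%), T_cell_3 held 18, T_cell_2 held 4 and T_cell_4 held 1. Within T_cell_1 the share was 2.48% of cells as deposited and 0.961% (exact 95% interval 0.603 to 1.45%) once each cell was thinned to 500 UMIs. B cells, which should lack the gene, gave 0.115% as deposited and 0.0721% after thinning (median depth 2396 UMIs against 2679 in T_cell_1). A Foxp3 UMI was also found in 10 of 5367 resident macrophages (0.186% as deposited and 0.0194% after thinning). The intervals cover counting error only.

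Ikzf2 (chr1:69531214-69687245, minus strand), which encodes the zinc finger factor Helios, was broader. It was highest in Malat+_T_cell (168 ± 50.4 CPM) and T_cell_4 (165 ± 57.4), followed by NK_cell_2 (112 ± 31.5), T_cell_1 (106 ± 43.7), ILC2 (101 ± 29.1) and T_cell_2 (85.3 ± 36.6). T_cell_3 (29.8 ± 23.6) and NK_cell_1 (14.9 ± 4.35) were low. T_cell_4, in which 5 of 5 markers of gamma-delta T cells were detected over all datasets (171 to 1145 CPM in sum by dataset), had 222, 166 and 107 CPM of Ikzf2 in Aachen, Bonn and Hamburg. In Aachen the markers Trdc, Tcrg-C1, Tcrg-C2 and Tcrg-C4 were listed at 0, so the sum there is that of Cd163l1 alone. T_cell_4 exceeded NK_cell_2 by 0.50 ± 0.26 on the log2 scale, and T_cell_2 exceeded T_cell_3 by 1.36 ± 0.98, both in 3 of 3 datasets. The neighbors between these did not differ beyond their spread. Resident macrophage clusters had 6.31 to 9.58 CPM.

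The NK clusters split on Ikzf2. NK_cell_1 had 11.9, 19.9 and 13.0 CPM in Aachen, Bonn and Hamburg, and NK_cell_2 had 124, 136 and 76.6 CPM. The clusters did not overlap. The share of cells with an Ikzf2 UMI was 3.47% in NK_cell_1 and 19.9% in NK_cell_2 as deposited, and 0.509% and 3.48% after thinning to 500 UMIs.

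Il2ra (chr2:11642807-11693193, plus strand), the alpha chain of the interleukin 2 receptor, was highest outside the conventional T cell clusters. ILC2 had 79.9, 234 and 242 CPM in Aachen, Bonn and Hamburg (185 ± 91.1), and T_cell_4 had 154, 94.0 and 81.4 CPM (110 ± 38.7). Aachen was thus lowest for ILC2 and highest for T_cell_4, and the pair did not differ beyond its spread. Malat+_T_cell had a mean of 52.1 CPM, NK_cell_2 of 26.9 and T_cell_1 of 23.6 (10.6, 38.9 and 21.3 by dataset). T_cell_2, NK_cell_1 and T_cell_3 averaged 5.58, 5.04 and 2.81 CPM. T_cell_1 exceeded T_cell_2 beyond the spread, as did Malat+_T_cell over NK_cell_2.

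Ctla4 (chr1:60887000-60915832, plus strand), an inhibitory receptor that competes with CD28 for its ligands, was highest in Hamburg in most clusters. T_cell_1 had 59.7, 77.8 and 275 CPM in Aachen, Bonn and Hamburg, and T_cell_2 had 41.6, 41.8 and 141 CPM. Hamburg was highest in both, and T_cell_1 exceeded T_cell_2 in each dataset, by 0.70 ± 0.24 on the log2 scale. Malat+_T_cell ranged from 0 in Aachen to 593 CPM in Hamburg, and T_cell_4 from 0 in Aachen to 190 CPM in Hamburg. NK_cell_2 averaged 37.7 CPM, T_cell_3 18.4 CPM and NK_cell_1 3.58 CPM. ILC2 had 1 UMI in 424 cells.

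Tbx21 (chr11:97098071-97115331, minus strand), which encodes T-bet, was shared by both NK clusters and by T_cell_1 and T_cell_2. NK_cell_1 had 131, 456 and 278 CPM in Aachen, Bonn and Hamburg (288 ± 163) and NK_cell_2 had 95.1, 375 and 287 CPM (252 ± 143). The NK clusters overlapped and did not differ beyond their spread. T_cell_1 had 157 ± 75.2 CPM, Malat+_T_cell a mean of 132 and T_cell_2 117 ± 54.2. T_cell_4, T_cell_3 and ILC2 were low at 13.9, 8.91 and 4.07 CPM. NK_cell_2 exceeded T_cell_1 by 0.58 ± 0.25 on the log2 scale, and T_cell_2 exceeded T_cell_4 by 2.50 ± 0.34.

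Eomes (chr9:118478212-118486132, plus strand), the T-box relative of Tbx21 that marks conventional NK cells, separated the NK clusters in the direction opposite to Ikzf2. NK_cell_1 had 101, 326 and 400 CPM in Aachen, Bonn and Hamburg, and NK_cell_2 had 0, 16.5 and 25.5 CPM. The clusters did not overlap. An Eomes UMI was found in 46.7% of NK_cell_1 and 4.36% of NK_cell_2 cells, while the shares for Tbx21 were 48.5% and 47.8%. After thinning to 500 UMIs the Eomes shares were 12.6% (exact 95% interval 10.0 to 15.5%) and 1.93%. Among T cells, T_cell_2 was highest with 22.8, 83.5 and 128 CPM, and NK_cell_1 exceeded it by 1.73 ± 0.14 on the log2 scale. Malat+_T_cell, T_cell_3, T_cell_1 and ILC2 averaged 54.5, 19.6, 3.72 and 1.78 CPM, and T_cell_4 had 0 UMIs in its 161 cells.

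Gata3 (chr2:9857078-9890034, minus strand), the type 2 factor used by the study to name ILC2, had 619, 711 and 831 CPM there in Aachen, Bonn and Hamburg. A UMI was found in 67.2% of ILC2, and in 27.3% after thinning to 500 UMIs. It was not limited to ILC2. T_cell_1 had 142, 113 and 117 CPM and T_cell_4 had 120, 99.6 and 105 CPM, which is below ILC2 in each dataset, for T_cell_1 by 2.44 ± 0.35 on the log2 scale. Means of 84.8 CPM in NK_cell_2, 67.1 in Malat+_T_cell, 66.5 in NK_cell_1, 57.4 in T_cell_2 and 34.6 in T_cell_3 followed. In T_cell_1 and T_cell_4, Gata3 was highest in Aachen, the shallowest dataset.

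Bcl6 (chr16:23965052-23988852, minus strand), the follicular helper factor and a repressor also used by B cells and myeloid cells, was low in all 8 clusters. Malat+_T_cell had the highest mean (38.1 CPM), followed by NK_cell_2 (20.6), T_cell_1 (15.8), T_cell_2 (11.7), NK_cell_1 (11.5), ILC2 (8.89), T_cell_3 (5.36) and T_cell_4 (4.38). B cell clusters had 42.3 to 55.4 CPM and resident macrophage clusters 27.7 to 34.6 CPM. In Aachen, 4 of the 8 clusters had 0 UMIs of Bcl6, and none of its levels there rested on more than 3 UMIs.

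Tcf7 (chr11:52252371-52283014, minus strand), which encodes the naive and memory factor TCF-1, marked T_cell_3. This cluster had 217, 592 and 656 CPM in Aachen, Bonn and Hamburg, and exceeded T_cell_4 by 1.28 ± 0.27 on the log2 scale. A UMI was found in 76.1% of T_cell_3 cells and in 23.3% of T_cell_1 cells, and after thinning in 25.0% and 5.46%. T_cell_4, Malat+_T_cell, T_cell_2 and T_cell_1 followed at 196, 180, 143 and 124 CPM with no difference beyond the spread. NK_cell_1 had 77.9 CPM, NK_cell_2 60.7 and ILC2 20.3. The order of the 4 numbered T clusters for Tcf7 thus began with the cluster that had the lowest mean of them for Ikzf2, Il2ra, Ctla4, Tbx21 and Gata3.

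In the tests, T cells are the cells of T_cell_1 to T_cell_4. The first comparison asks whether T cells of the medulla (the mean of OM and IM) differed from those of the cortex in these genes. All 9 passed the filter on low counts. Ikzf2 was higher in the medulla, and it was the 1 member called among 3 of 8957 genes (0.0335%, with 0.0223% higher) when the dataset entered edgeR's quasi-likelihood model as a block and p-values were adjusted over all genes (Benjamini-Hochberg). Another of the 3 was S100a9, a neutrophil gene (log2 fold change 4.59, adjusted p = 0.0011).

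**Figure D2:**
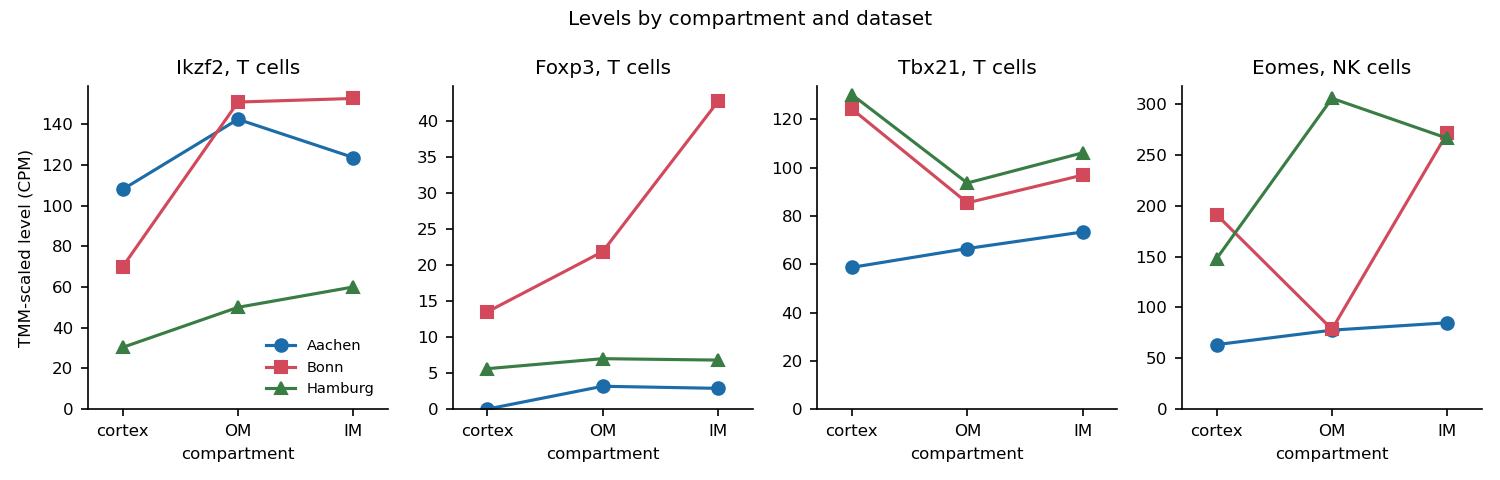
TMM-scaled CPM (y axis) of Ikzf2, Foxp3 and Tbx21 in T cells and of Eomes in NK cells by compartment (x axis). Lines join the libraries of 1 dataset. Ikzf2 was higher in OM and IM than in cortex in all 3 datasets, while Eomes fell in Bonn OM.

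Ikzf2 in T cells of cortex, OM and IM had TMM-scaled levels of 108, 142 and 124 CPM in Aachen, 69.9, 151 and 153 CPM in Bonn, and 30.3, 50.0 and 60.1 CPM in Hamburg. The cortex was lowest in each dataset, and the compartments overlapped across datasets. The log2 fold change was 0.86 ± 0.14 (SE; adjusted p = 0.0371), with 0.89 (adjusted p = 0.0447, with 0.0558% of genes called) for IM alone and 0.83 (adjusted p = 0.243) for OM alone. OM and IM differed by -0.06 (adjusted p = 1.0). The direction was the same under all alternatives, but the call was not: adjusted p ranged from 1.4e-06 without a filter on low counts to 1.0 with no replicate block. It was lost without Bonn (0.65, adjusted p = 0.167), without Hamburg (0.82, adjusted p = 0.867), and without any of Aachen OM, the 3 Bonn libraries, Hamburg OM or Hamburg cortex (0.66 to 0.91, adjusted p 0.0726 to 0.252).

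Markers of other cells moved with this comparison. Macrophage markers in the T cells of cortex, OM and IM summed to 982, 2913 and 2614 CPM in Aachen, 180, 121 and 129 CPM in Bonn, and 52.3, 171 and 60.5 CPM in Hamburg. They were thus higher in the medulla in Aachen and Hamburg and lower in Bonn. Of 9 macrophage markers tested, 6 had an unadjusted p under 0.05 in edgeR, against 5.74% of all genes. For IM alone, 1 of them was called. Neutrophil markers summed to 7.49, 4.75 and 3.45 CPM in Aachen, 1.12, 2.28 and 0.949 CPM in Bonn, and 2.57, 29.1 and 109 CPM in Hamburg. Nephron markers summed to 24.4, 66.5 and 16.1 CPM in Aachen, 6.03, 27.4 and 268 CPM in Bonn, and 6.31, 3.87 and 4.43 CPM in Hamburg. Hamburg IM was thus highest for neutrophil and Bonn IM for nephron markers, of which 2 of 2 tested had an unadjusted p under 0.05 and 1 was called for IM alone. All 9 macrophage and all 4 neutrophil markers were detected in each compartment. Without the mixed cells the Ikzf2 difference was 0.56 (adjusted p = 0.253), and with cells thinned to 500 UMIs it was 0.37 (adjusted p = 0.882). Without the cells with a Foxp3 UMI it was 0.79 (adjusted p = 0.0354, 0.0458% of genes called).

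The other members did not pass the test in T cells. Foxp3 had 0, 3.17 and 2.88 CPM in cortex, OM and IM of Aachen, 13.5, 21.9 and 42.7 CPM in Bonn, and 5.61, 7.0 and 6.80 CPM in Hamburg. The Aachen values rested on 0, 1 and 2 UMIs. With that limit, the cortex was lowest for Foxp3 in each dataset (0.92 ± 0.32, edgeR adjusted p = 0.671). Tbx21 went the other way in Bonn (124, 85.4 and 96.9 CPM) and Hamburg (130, 93.6 and 106 CPM) but not in Aachen (58.7, 66.5 and 73.4 CPM), with a log2 fold change of -0.33 ± 0.11 (adjusted p = 0.671). These 2 and Ikzf2 were the members at an unadjusted p under 0.05, as were 5.74% of all genes tested. Estimates for Eomes (0.42 ± 0.23), Ctla4 (0.26 ± 0.26), Il2ra (0.17 ± 0.29), Tcf7 (0.13 ± 0.16), Bcl6 (0.12 ± 0.28) and Gata3 (0.08 ± 0.15) had adjusted p of 0.922 to 0.999. Over the 9 genes the median log2 fold change was 0.17, against 0.0045 over all genes tested.

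Restricted to T_cell_1, an alternative added after the data were seen, both Ikzf2 (1.09 ± 0.20, adjusted p = 0.0379) and Foxp3 (1.52 ± 0.31, adjusted p = 0.0395) were called as higher in the medulla, among 14 of 7278 genes (0.192%). Ikzf2 in T_cell_1 had 112, 222 and 110 CPM in cortex, OM and IM of Aachen, 101, 199 and 240 CPM in Bonn, and 34.4, 75 and 97.3 CPM in Hamburg. Aachen IM was no higher than Aachen cortex. Foxp3 had 0, 7.66 and 0 CPM in Aachen, 27, 56.1 and 81.4 CPM in Bonn, and 6.0, 19.6 and 21.7 CPM in Hamburg. The Bonn OM value rested on 11 UMIs in 2 cells. T_cell_1 made up 52.6% of T cells in cortex, 37.1% in OM and 41.9% in IM. Ikzf2 was not called within T_cell_2 (0.52), T_cell_3 (0.92) or T_cell_4 (0.96), and the difference between clusters was not tested.

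Of the regulatory T program, Tnfrsf4, which encodes the costimulatory receptor OX40, had an estimate of 1.12 and an adjusted p of 0.295 between medulla and cortex. Of the 19 tested on that list, which includes Tnfrsf4, Tnfrsf18, Icos and Ccr8, 0 were called in T cells by edgeR and 4 had an unadjusted p under 0.05, with a median log2 fold change of 0.19. The type 1 list had 0 of 16 called and 7 at an unadjusted p under 0.05 (median -0.07), and the list around Tcf7 0 of 16 and 4 (median 0.14), where 5.74% of all genes had an unadjusted p under 0.05. DESeq2 called 2 genes in all and none of the members.

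In NK cells, 5 of the 9 members passed the filter (Ikzf2, Tbx21, Gata3, Eomes and Tcf7), and 0 were called by edgeR, with 0.0299% of 3341 genes called. DESeq2 called none of them either. Eomes was at an unadjusted p under 0.05. It had 63.4, 77.7 and 84.9 CPM in cortex, OM and IM of Aachen, 191, 78.5 and 272 CPM in Bonn, and 148, 306 and 266 CPM in Hamburg. The medulla was higher in 5 of its 6 libraries, and Bonn OM, with 19 NK cells, was the exception. The log2 fold change was 0.57 ± 0.23 (adjusted p = 0.875), and it was called without Bonn OM (0.82, adjusted p = 0.0069) and without Bonn (0.90, adjusted p = 0.0255). NK_cell_1, the cluster with high Eomes, made up 41.2 ± 13.7% of NK cells in cortex, 55.1 ± 16.4% in OM and 61.2 ± 9.30% in IM (SD, n = 3). Macrophage markers in NK cells summed to 248 to 1143 CPM in cortex, 15.7 to 2053 in OM and 105 to 1069 in IM. Eomes was 0.51 higher without the mixed cells (adjusted p = 0.634) and 0.18 higher within NK_cell_1 alone (adjusted p = 1.0). Without Hamburg it was -0.18 and without Hamburg OM -0.02. Ikzf2 (0.28), Tbx21 (0.14), Gata3 (0.11) and Tcf7 (-0.22) did not pass either.

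In ILC2, 3 members passed the filter and their compartments overlapped. Gata3 had 906, 880 and 1197 CPM in cortex, OM and IM of Aachen, 803, 755 and 670 CPM in Bonn, and 949, 866 and 1217 CPM in Hamburg (0.03 ± 0.17, adjusted p = 0.998). Il2ra had 95.4, 160 and 114 CPM in Aachen, 252, 243 and 251 CPM in Bonn, and 259, 269 and 354 CPM in Hamburg (0.17 ± 0.21, adjusted p = 0.962). Ikzf2 had 167, 160 and 199 CPM in Aachen, 129, 195 and 112 CPM in Bonn, and 82.8, 59.0 and 116 CPM in Hamburg (0.08 ± 0.31, adjusted p = 0.990). Of these, 0 were called by edgeR or DESeq2 and 0 had an unadjusted p under 0.05, while 0.359% of 1669 genes were called. The ILC2 of Bonn numbered 12 in OM and 23 in IM. Mixed cells made up 42.9% of ILC2. Macrophage markers in ILC2 summed to 2106, 3319 and 2413 CPM in cortex, OM and IM of Aachen. The sums were 474, 373 and 228 CPM in Bonn, and 235, 275 and 329 CPM in Hamburg. Their part in these levels was not tested.

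Whether the compartment effect differed between T and NK cells was tested as an interaction. edgeR called 16 of 8271 genes (0.193%) and 0 of the members, and Foxp3, with 1 UMI in NK cells, had no usable estimate. The effect of the medulla on Tbx21 was lower in T than in NK cells by 0.47 (unadjusted p = 0.0075, adjusted p = 0.970). Tcf7 (higher in T cells by 0.57), Ctla4 (by 0.77) and Ikzf2 (by 0.60) were also under an unadjusted p of 0.05 in edgeR, each at an adjusted p of 1.0, and DESeq2 called no gene. Of all genes tested, 4.39% were under an unadjusted p of 0.05 in edgeR. Ctla4 had 92 UMIs in NK cells and, like Il2ra and Bcl6, had not passed the filter there. No difference between the classes is read from the estimates of these genes.

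The second comparison asks which of the other members go with Foxp3 in single T cells. T cells with at least 1 Foxp3 UMI were set against those without, summed within each of the 5 libraries with 5 or more such cells: Bonn cortex (31 cells), Bonn IM (19), Hamburg cortex (9), Hamburg OM (8) and Hamburg IM (11). The 78 cells with a Foxp3 UMI were not deeper than the 3501 without (median 2964.5 against 3424 UMIs). A cell without a Foxp3 UMI may still express the gene. No Aachen library entered this comparison. Its p-values use the spread of the difference between both groups over 5 libraries of 2 datasets, which edgeR estimated jointly over genes. They therefore do not measure the spread of 1 gene between these libraries on its own. With counts summed per dataset, which adds 2 such cells of Bonn OM, Ikzf2 and Ctla4 were called, as in the main fit. The fit per dataset pairs 2 datasets only, and across all 15 alternatives of this comparison 96 to 328 genes were called. Cd3e was detected in 97.4% and 95% of the cells with and without a Foxp3 UMI, Cd4 in 38.5% and 23.2%, and Cd8a in 6.41% and 30.3%.

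Of the 8 members other than Foxp3, 4 were higher in the cells with a Foxp3 UMI, 3 were lower and Bcl6 was not called, while 3.41% of 7704 genes were called in all (1.18% higher, 2.23% lower). The median log2 fold change over all genes was -0.21. Where the groups are said not to overlap, this describes 1 gene, and the share of all genes without overlap was not counted.

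**Figure D3:**
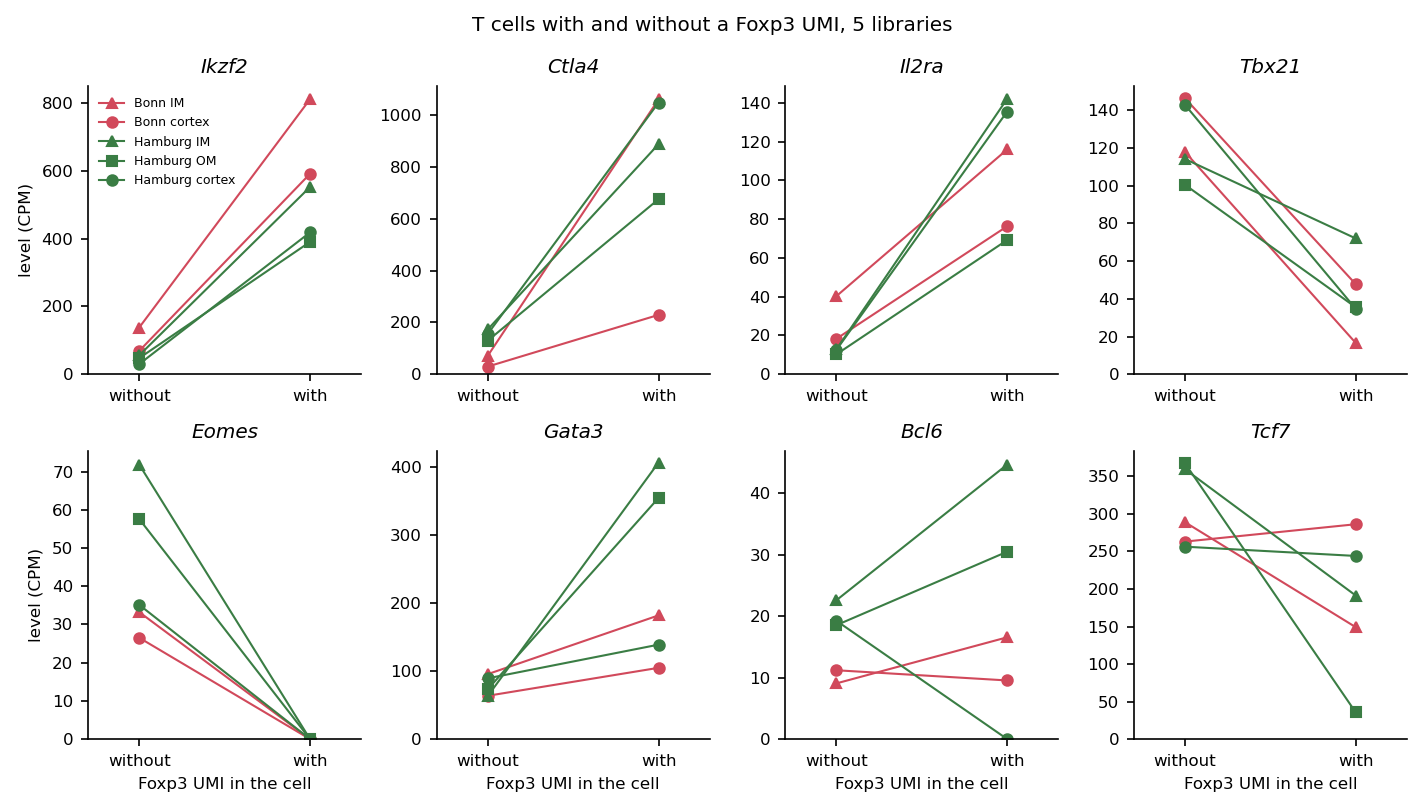
Level (y axis, CPM) of 8 genes in T cells without and with a Foxp3 UMI (x axis), with a line for each of 5 libraries. Ikzf2, Ctla4, Il2ra and Gata3 rose and Tbx21 and Eomes fell in all 5.

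Ikzf2 had 592, 812, 419, 391 and 553 CPM in the cells with a Foxp3 UMI of Bonn cortex, Bonn IM, Hamburg cortex, Hamburg OM and Hamburg IM, and 68.8, 138, 30.1, 47.5 and 55.9 CPM in the cells without. The groups did not overlap (2.77 ± 0.23, adjusted p = 6.7e-29). An Ikzf2 UMI was found in 61.5% of the cells with and 12.7% of those without. Ctla4 had 229, 1060, 1048, 675 and 888 CPM against 29.7, 71.5, 156, 130 and 173 CPM in the same libraries. Again the groups did not overlap, Bonn cortex being lowest among the cells with a Foxp3 UMI (2.49 ± 0.22, adjusted p = 2.3e-26). Both were called under all 15 alternatives, Ikzf2 with 2.36 to 3.06 (adjusted p 5.3e-39 to 1.6e-06) and Ctla4 with 2.03 to 3.29 (adjusted p 8.1e-39 to 2.4e-05).

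Il2ra had 76.3, 116, 136, 69.2 and 142 CPM against 18.3, 40.3, 12.6, 10.3 and 12.9 CPM (2.16 ± 0.45, adjusted p = 1.5e-04). The groups did not overlap, although the higher values rest on 27 UMIs in all. The call was lost without Hamburg (1.63, adjusted p = 0.193). Gata3 had 105, 182, 139, 355 and 407 CPM against 63.8, 95.7, 89.5, 73.5 and 63.5 CPM (1.16 ± 0.28, adjusted p = 0.0028). The rise of Gata3 was largest in Hamburg OM and IM and was not called without Hamburg IM (0.79, adjusted p = 0.243) or without Hamburg (0.65, adjusted p = 0.683).

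Among the members that fell, Tbx21 had 47.7, 16.6, 34.7, 35.5 and 72.0 CPM against 146, 118, 143, 100 and 114 CPM (-1.90 ± 0.41, adjusted p = 3.0e-04). The groups did not overlap, and the call was lost without Bonn (-1.69, adjusted p = 0.131) and with DESeq2 (-1.75, adjusted p = 0.0512). Eomes had 0 UMIs in the cells with a Foxp3 UMI of all 5 libraries and 26.5, 33.2, 35.1, 57.6 and 71.8 CPM in those without (41.9 CPM pooled), which is at least 3.69-fold lower against a floor of 3 counts over the group (adjusted p = 5.7e-04). Without Bonn its adjusted p was 0.0515 and without Hamburg 0.190. Tcf7 had 286, 149, 244, 35.5 and 191 CPM against 263, 289, 256, 367 and 360 CPM. It was higher in Bonn cortex and lower in the 4 other libraries (-0.94 ± 0.26, adjusted p = 0.0149), and 10 of its 15 alternatives ended the call, among them those without Hamburg (-0.40), Hamburg OM (-0.65), Hamburg IM (-0.87) and Bonn IM (-0.89). Bcl6 had 0 to 44.7 CPM against 9.06 to 22.6 CPM (0.06 ± 0.79, adjusted p = 0.990).

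Markers of other cells moved with this comparison. NK markers summed to 0 to 262 CPM in the cells with a Foxp3 UMI and 519 to 665 CPM in those without, and 6 of 8 tested were lower. Gamma-delta markers were lower for 4 of 5 tested. ILC2 markers summed to 262 to 669 CPM against 138 to 330 CPM, higher in all 5 libraries, with Il1rl1 and Areg called higher and Il4 lower of 4 tested. These go with the lower Tbx21, Eomes and type 1 genes and with the higher Gata3, Il1rl1, Areg and Klrg1, and their part in those results was not tested. Mixed cells made up 46.2% of the cells with a Foxp3 UMI and 24.5% of those without, and 13 of the 19 such cells of Bonn IM were mixed. B cell markers summed to 212 to 1209 CPM against 192 to 555 CPM, with 7 of 8 detected in the cells with a Foxp3 UMI and Cd22 at 0. Macrophage markers summed to 38.2 to 215 CPM against 52.1 to 184 CPM, with 4 of 9, C1qb, Csf1r, Adgre1 and Fcgr1, at 0, and all 4 neutrophil markers were at 0. Without the mixed cells, edgeR called 3 of 7 members, with 1.64% of genes called: Ikzf2 (2.36, adjusted p = 9.5e-09), Ctla4 (2.33, adjusted p = 5.8e-10) and Eomes (adjusted p = 0.0471). Il2ra (1.97, adjusted p = 0.0791), Gata3 (1.15, adjusted p = 0.123), Tbx21 (-1.61, adjusted p = 0.0955) and Tcf7 (-1.14, adjusted p = 0.129) kept their direction and lost the call.

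Within T_cell_1 alone, 5 of 7 members were called, among 4.15% of 5832 genes. Il2ra was 1.32 higher there (adjusted p = 0.134) and Gata3 0.97 higher (adjusted p = 0.0480). With each cell thinned to 500 UMIs, Ikzf2 and Ctla4 were the 2 of 6 members called (4.33% of genes), and Gata3 was 0.33 higher (adjusted p = 0.873).

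**Figure D4:**
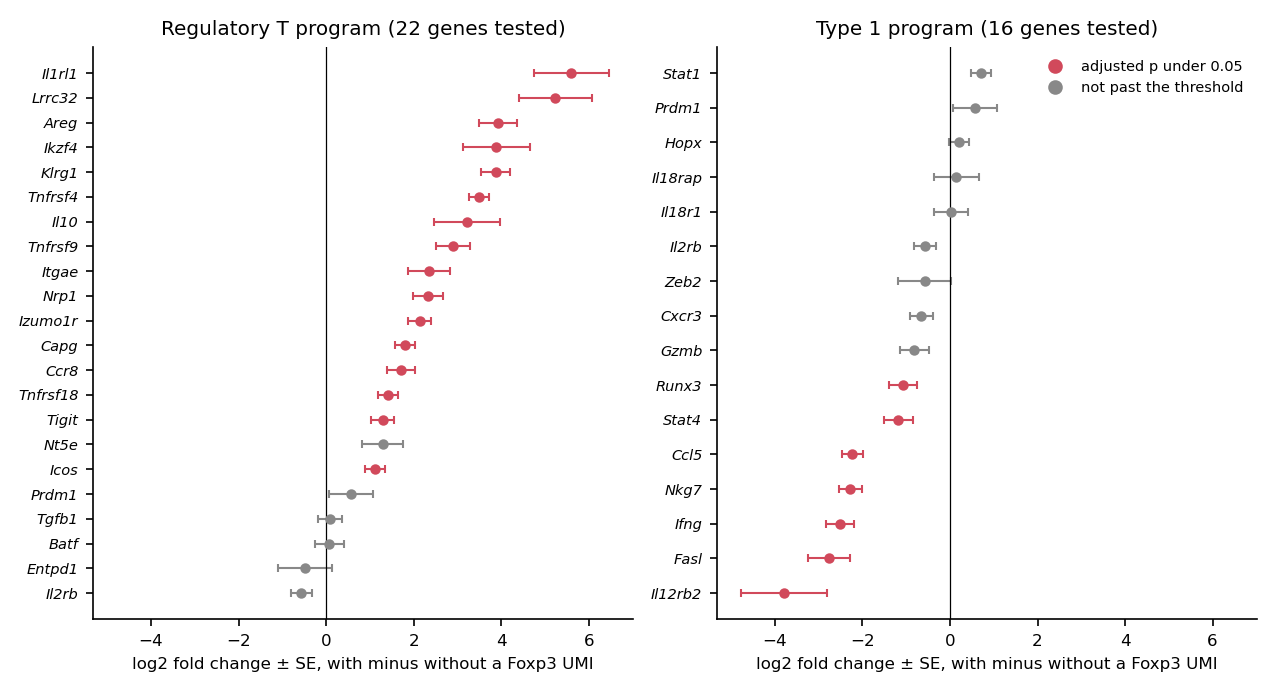
Log2 fold change ± SE (x axis, cells with minus without a Foxp3 UMI) of the tested genes of the regulatory T and type 1 lists (y axis). Red points passed an adjusted p of 0.05: 16 of 22 regulatory T genes, all higher, and 7 of 16 type 1 genes, all lower.

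The wider programs of each lineage, listed without the members, moved with Foxp3 as follows. Of 22 regulatory T genes tested, 16 were higher and 0 lower, with a median of 1.97. These include Tnfrsf4 (3.50 ± 0.22, adjusted p = 3.0e-51), Lrrc32, whose product GARP displays latent TGF-beta (5.24), the Helios relative Ikzf4 (3.89), and Areg, which encodes the growth factor amphiregulin (3.93 ± 0.43, adjusted p = 4.1e-17). Il1rl1, the interleukin 33 receptor, was 5.60 ± 0.85 higher (adjusted p = 1.7e-08), from 0.745 to 36.3 CPM in Bonn and from 0.647 to 60.6 CPM in Hamburg, although this rests on 6 UMIs in each dataset. Klrg1, an inhibitory receptor of differentiated lymphocytes, rose from 17.1 to 182 CPM in Bonn and from 13.7 to 394 CPM in Hamburg (3.88 ± 0.33, adjusted p = 9.0e-29). Il1rl1, Areg and Klrg1 also stand on the type 2 list.

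Of 16 type 1 genes, 0 were higher and 7 were lower (median -0.74). They were the transcription factors Runx3 (-1.08) and Stat4 (-1.18), the chemokine Ccl5 (-2.23), the granule protein gene Nkg7 (-2.27), Ifng (-2.52), Fasl (-2.76) and the interleukin 12 receptor chain Il12rb2 (-3.79). The type 2 list was split, with 6 of 14 higher, among them Ccr4 (2.58), and 3 lower (median 0.36), and 5 of the 6 higher genes are also on the regulatory T or follicular helper list. Of the lower ones, Id2 fell by 0.98 in the fit, from 796 to 266 CPM in Bonn but not in Hamburg (353 without and 384 CPM with a Foxp3 UMI), Il4 had 0 UMIs in cells with a Foxp3 UMI, at least 5.96-fold lower, and Csf2 had 0, at least 2.18-fold lower. The follicular helper list had 2 of 10 higher, Icos (1.11) and Maf (0.95), and 0 lower. The list around Tcf7 had 1 of 16 called, the chromatin organizer Satb1 (-1.25), and the type 17 list had Maf higher and Il17a at 0 UMIs, at least 3.37-fold lower.

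Among all genes, the 12 with the largest rise and the same sign in both datasets were, beside Il1rl1, Lrrc32, Areg, Ikzf4 and Klrg1, the genes Neb (4.95), Ncmap (4.16), Penk (4.15), Gpr15 (4.09), Ccr3 (3.91), Rln3 (3.87) and Cib2 (3.73). Penk encodes proenkephalin and Gpr15 a homing receptor of T cells. The 6 with the largest fall all had 0 UMIs in the cells with a Foxp3 UMI. Against a floor of 3 counts over the group they were at least 7.59-fold (Sema4a), 6.95-fold (Zfp683, the tissue-residency factor Hobit), 6.83-fold (Trgv2), 5.96-fold (Il4), 4.59-fold (Ccl1) and 3.81-fold (Trdv4) lower. Trgv2 and Trdv4 are variable segments of the gamma and delta receptor chains.

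The share of T cells with a Foxp3 UMI was compared between compartments with each cell thinned to 500 UMIs. In cortex, OM and IM it was 0 of 405 cells, 0 of 364 and 0.161% in Aachen, where a count of 0 allows up to 0.741% and 0.824%. In Bonn it was 0.753%, 0 of 118 cells (which allows up to 2.54%) and 4.12% (exact 95% interval 2.15 to 7.09%), and in Hamburg 0.201%, 0.219% and 0.313%. Bonn IM had the highest share. The medulla exceeded the cortex by 0.485 percentage points on average (0.0806 in Aachen, 1.31 in Bonn and 0.0655 in Hamburg), higher in 3 of 3 datasets. The Aachen difference rested on 1 cell of IM, and the Hamburg shares on 2, 1 and 2 cells. The exact two-sided permutation test of compartments within datasets gave p = 0.741, and the smallest p its 27 arrangements allow is 0.037. Without Bonn the difference was 0.0731 points, and without the mixed cells 0.0753 points (exact permutation p = 0.889).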

How the data were processed

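Expected counts per gene and cell were deposited by the authors in 1 table with cluster, compartment and facility columns. Per their methods and processing notes, Cell Ranger aligned the reads to mm10, and Seurat served to filter (200 to 4000 detected genes, mitochondrial share up to 20%), integrate and cluster the cells; a removal of doublets is not given in the sources used here. Values in Aachen and Bonn were whole, while 0.118% of those above 0 in Hamburg were, so these were rounded after summing (per cell for shares). No doublet caller was run, and mixed cells were left out in an alternative.

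Counts were summed per library and class (T_cell_1 to T_cell_4, both NK clusters, ILC2) where at least 10 cells were present, and tested with edgeR 4.0.16 (filterByExpr, TMM, quasi-likelihood test, R 4.3.3) with compartment and facility as terms, Benjamini-Hochberg over all genes and a threshold of 0.05. Alternatives included DESeq2 1.42.0, RLE scaling, no filter, thinned cells and left-out facilities or libraries. Facility is a batch that crosses the compartments: the deviations of T cell libraries from their compartment means correlated at 0.71 to 0.87 within a facility (9 pairs, 3340 genes) and at -0.69 to 0.066 between facilities (18 pairs), so facility pairs the libraries and was kept as a block.

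The 9 genes and all gene lists were chosen with earlier results of these data known. Named beyond them were up to 4 called genes of a list with the largest change, and, for the Foxp3 comparison, the 12 largest rises and 6 largest falls with the same sign in each dataset; Tnfrsf4, Ccr4, Id2, Runx3, Stat4, Ccl5, S100a9, Cd3e, Cd4 and Cd8a were chosen after their values were seen, as were the alternatives within clusters, without a library, without cells with a Foxp3 UMI, and without mixed cells in the Foxp3 comparison. On simulated counts, 2-fold changes were found in 74.2% of T cell, 77% of NK cell, 54.4% of ILC2 and 25.7% of Foxp3-comparison genes, with 12, 6, 11 and 5 false calls.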

Additional observations from a re-analysis of the deposited data

How the results depend on the processing

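The number of members called between medulla and cortex in T cells was 1 in the main test. It was 0 with DESeq2, 0 with no replicate block, 0 with cells thinned to 500 UMIs, 0 without mixed cells, 2 within T_cell_1 (Ikzf2 and Foxp3), and 0 within each of T_cell_2, T_cell_3 and T_cell_4. Leaving out a facility or library gave 0 to 1 in T cells and 0 to 1 in NK cells, where Eomes was called without Bonn or Bonn OM. In the Foxp3 comparison 7 members were called, 2 with thinned cells, 3 without mixed cells, 6 with no replicate block, and 3 to 7 with a facility or library left out. The block changed no other call of a member. The genes called between medulla and cortex in T cells numbered 3, but 107 without a filter on low counts, 7 with thinned cells, 0 with no replicate block, 37 without Bonn and 45 without Bonn cortex. In NK cells they numbered 1, but 52 without Bonn, 37 without Bonn OM, 21 without Bonn cortex and 15 without Bonn IM. Those called with Foxp3 numbered 263, but 117 with DESeq2, 96 with thinned cells, 106 without mixed cells, and 134 without Bonn or without Hamburg. With RLE scaling, 127 rose and 108 fell with Foxp3, against 91 and 172, and the median over all genes was -0.03 against -0.21.

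Estimates that were not called also turned sign. In T cells they were Il2ra with DESeq2 (-0.20) and no replicate block (-0.14), Bcl6 (-0.0065) and Eomes (-0.059) with DESeq2, Gata3 without mixed cells (-0.063), Ctla4 (-0.0095) and Tbx21 (0.017) within T_cell_2, and Tcf7 within T_cell_3 (-0.056) and T_cell_4 (-0.39). In NK cells they were Tbx21 (-0.26) and Tcf7 (1.06) with thinned cells and Gata3 within NK_cell_1 (-0.14). In ILC2 they were Ikzf2 without mixed cells (-0.069) and Gata3 with no filter (-0.049), thinned cells (-0.092) and without mixed cells (-0.25). The interaction of Ctla4 was -0.35 with DESeq2, and Bcl6 in the Foxp3 comparison was -0.081 with no filter. With a facility or library left out, the T cell estimates ran from -0.43 to 0.41 for Il2ra, -0.18 to 0.62 for Ctla4, -0.24 to 0.36 for Gata3, -0.11 to 0.35 for Bcl6, -0.47 to 0.66 for Eomes and -0.18 to 0.33 for Tcf7. In NK cells they ran from -0.18 to 0.49 for Gata3, -0.18 to 0.90 for Eomes and -0.32 to 0.082 for Tcf7, and in ILC2 from -0.12 to 0.26 for Ikzf2 and -0.070 to 0.17 for Gata3. The interaction ran from -0.76 to 0.59 for Il2ra and -0.16 to 0.72 for Tcf7, and Bcl6 in the Foxp3 comparison from -0.25 to 0.33. The cause was not tested. Depth limits the sparse members, with 10 UMIs of Foxp3, 42 of Eomes, 62 of Il2ra and 66 of Bcl6 in all Aachen cells.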

Other observations

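For each of the 9 genes, the 3 genes whose pattern was most like it over the 23 clusters were named by Pearson's r of log2(CPM + 1), among 10308 genes that reached 20 CPM in a cluster. The clusters share libraries and were built from these genes, so r is a description. Foxp3 was most like Izumo1r (0.80), Cd6 (0.78) and Tnfrsf4 (0.78), of which Izumo1r encodes folate receptor 4. Ctla4 shared Cd6 (0.89) and Izumo1r (0.87) with it. Il2ra was most like Rora (0.86), the factor needed by ILC2, B3galt2 (0.86) and Nrip1 (0.83). Ikzf2 was most like Rasal3 (0.90), Prrc2b (0.89) and Apol7e (0.89).

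Tbx21 was most like Xcl1 (0.96), Ifng (0.93) and Il2rb (0.93), a chemokine, a cytokine and a receptor chain of NK and type 1 cells, and Eomes was most like Baiap3 (0.91), the NK receptor gene Klra7 (0.90) and Wdr95 (0.89). Gata3 was most like Eya2 (0.96), Xlr4a (0.96) and Skap1 (0.95). Tcf7 was most like Cd247 (0.97), Trbc1 (0.96) and Lck (0.96), which encode parts of the T cell receptor and its kinase, although Trbc1 was listed at 0 in Aachen. Bcl6 had no close match, with Baz2b (0.78), Rab31 (0.78) and Zfp710 (0.77).

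Other lists had single called genes. The interaction between T and NK cells called Areg (3.47, adjusted p = 0.0018, edgeR), which is on the regulatory T and type 2 lists, and in ILC2 the type 1 gene Gzmb was lower in the medulla (-4.52 ± 0.80, adjusted p = 0.0410, edgeR). NK markers in the ILC2 of cortex, OM and IM summed to 748, 894 and 509 CPM in Aachen, 351, 43.9 and 12.6 CPM in Bonn, and 546, 319 and 80.4 CPM in Hamburg, and their part in the lower Gzmb was not tested.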
